A study of Homo sapiens with 3 samples.

Results

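The mitochondrial ribosomal protein genes were taken as the genes whose symbol is MRPL or MRPS followed by a number and an optional A, B or C, with nothing more. This rule found 78 of the 60930 genes in the expression table, 49 with an MRPL symbol for the large subunit of the mitochondrial ribosome and 29 with an MRPS symbol for the small subunit. All 78 had a mean of at least 1 TPM (a level per transcript length, scaled to the library) over the libraries and are among the 13637 genes tested. RNA-seq was done on PC3, a prostate cancer line that grows without androgen, whose cells carried a pLKO.1 short hairpin vector and had been selected with puromycin as stable transformants. There was 1 library from control cells (shCON, labelled RFP by the submitters), whose control sequence is not given in the sources used here. Of the others, 1 was from cells with shUSP16#1 and 1 from cells with shUSP16#2. Both hairpins were directed against USP16, a ubiquitin-specific protease that the study examined as a regulator of c-Myc. With 1 library per condition no difference has a replicate check, no test across samples was possible, and both hairpins were compared with the same shCON library.

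The mitochondrial ribosome translates the small set of mRNAs that mitochondrial DNA encodes, all of them for subunits of the respiratory chain and ATP synthase. Its RNA comes from mitochondrial DNA, but each of its proteins is encoded in the nucleus, made in the cytosol and imported. Some of these proteins have counterparts in bacteria, and others are found in mitochondrial ribosomes alone.

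Changes are given as log2(TPM + 1) under a hairpin minus that in shCON, which makes changes of low genes look smaller. Where 3 TPM values are given in a row, they are those of shCON, shUSP16#1 and shUSP16#2, and a pair of changes is that of shUSP16#1 and shUSP16#2. USP16, against which the hairpins were made, was at 19.92, 3.5 and 1.08 TPM, changes of -2.22 and -3.33. All tested genes had median changes of -0.17 and -0.37, against which the members are also set. TPM holds no record of sequencing depth, so no interval is given. In bulk RNA, fewer cells that express a gene and less RNA per cell cannot be told apart.

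The promoters of these genes are shown first, since 2 sequence motifs were common in them. RefSeq promoter windows, each from 250 bases before to 50 bases after a transcript start on GRCh38.p14, were matched by symbol for 69 of the 78 members (85 windows). They were searched on both strands for 4 motifs, namely the core of ETS factors (CCGGAAG), of NRF1 (GCGCATG) and of YY1 (AAGATGG) and the E-box that MYC binds (CACGTG). The ETS core was found in 33 windows (38.8%), against 10.3% of the 35116 windows in the whole RefSeq table and 17.4% of the 13889 windows of tested genes. The YY1 core was found in 27 windows (31.8%), against 5.84% and 7.14%. The NRF1 core was in 7 windows (8.24%, against 4.43% and 6.90%) and the E-box in 9 (10.6%, against 7.26% and 9.44%), close to the shares of tested genes. Of the 45 ETS matches, 31 lay within 50 bases of the transcript start, and so did 18 of the 29 YY1 matches. The YY1 core contains ATG, the letters of a start codon, and the median position of its matches was 8 bases past the transcript start. Whether a YY1 match is also a start codon was not tested. None of the motifs was found for 19 of the 69 genes, 1 for 33, 2 for 14 and 3 for 3. The windows of the 2 members with the lowest and the 2 with the highest mean change are printed below, followed by MRPL46 as an example of the YY1 core chosen for that motif. They are given 5′ to 3′ along the gene, and capitals mark a match to a motif on either strand.
MRPL30 (chr2:99180934-99181233, forward strand): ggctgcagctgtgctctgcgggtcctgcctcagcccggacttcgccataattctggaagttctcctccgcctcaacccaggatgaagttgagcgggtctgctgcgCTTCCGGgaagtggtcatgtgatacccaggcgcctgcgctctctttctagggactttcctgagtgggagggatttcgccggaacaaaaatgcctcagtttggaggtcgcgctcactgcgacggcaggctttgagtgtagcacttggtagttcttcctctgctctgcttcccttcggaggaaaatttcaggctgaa
MRPL39 (chr21:25607432-25607731, reverse strand): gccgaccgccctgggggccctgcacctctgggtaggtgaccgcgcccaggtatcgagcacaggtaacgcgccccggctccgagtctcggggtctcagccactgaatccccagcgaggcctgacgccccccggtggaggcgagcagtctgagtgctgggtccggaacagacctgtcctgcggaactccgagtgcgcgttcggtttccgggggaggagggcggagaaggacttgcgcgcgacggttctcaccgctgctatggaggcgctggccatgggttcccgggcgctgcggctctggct
MRPL43 (chr10:100987448-100987747, reverse strand): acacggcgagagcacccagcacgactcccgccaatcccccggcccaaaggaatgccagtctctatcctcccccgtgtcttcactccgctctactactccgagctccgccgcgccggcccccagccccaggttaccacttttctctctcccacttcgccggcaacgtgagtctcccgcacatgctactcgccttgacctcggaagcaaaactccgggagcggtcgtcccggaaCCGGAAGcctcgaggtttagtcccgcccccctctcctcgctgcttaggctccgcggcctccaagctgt
MRPS6 (chr21:34073328-34073627, forward strand): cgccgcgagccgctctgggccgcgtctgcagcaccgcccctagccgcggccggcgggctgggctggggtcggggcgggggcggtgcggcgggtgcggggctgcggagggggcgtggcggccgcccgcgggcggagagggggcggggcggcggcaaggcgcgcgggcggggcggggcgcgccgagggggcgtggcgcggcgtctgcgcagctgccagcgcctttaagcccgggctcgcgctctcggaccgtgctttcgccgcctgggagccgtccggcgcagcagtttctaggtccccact
MRPL46 (chr15:88467339-88467638, reverse strand): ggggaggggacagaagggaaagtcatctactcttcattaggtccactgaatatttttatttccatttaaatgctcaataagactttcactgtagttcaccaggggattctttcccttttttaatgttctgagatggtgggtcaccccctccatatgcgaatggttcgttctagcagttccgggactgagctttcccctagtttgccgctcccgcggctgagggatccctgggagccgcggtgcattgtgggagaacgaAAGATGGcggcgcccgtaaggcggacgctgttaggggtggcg

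**Figure D1:**
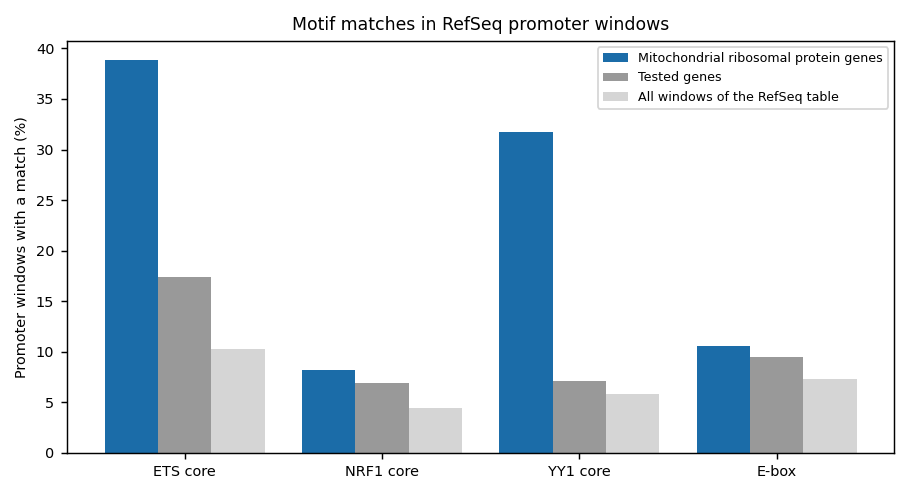
Share of promoter windows (vertical axis, %) with a match to each motif, for the 85 windows of mitochondrial ribosomal protein genes (blue), the windows of tested genes (dark grey) and all windows in the RefSeq table (light grey). The blue bars stand at 38.8% for the ETS core and 31.8% for the YY1 core, above both grey bars, and at 8.24% and 10.6% for the NRF1 core and the E-box.

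Members with and without the ETS or YY1 core had like median changes. The 30 genes with an ETS core had medians of -0.12 under shUSP16#1 and -0.19 under shUSP16#2, and the 39 without had -0.11 and -0.24. For the YY1 core the medians were -0.15 and -0.23 with it (24 genes) and -0.12 and -0.20 without. The 7 genes with an NRF1 core had -0.10 and 0.00, against -0.12 and -0.24 without, and the 9 with an E-box had -0.07 and -0.30, against -0.14 and -0.21. In the printed windows, MRPL30, among the lowest, and MRPL43, among the highest, each held 1 ETS core, while MRPL39 and MRPS6 held no match. A match is a stretch of letters and does not show that a factor binds there.

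In shCON the members spanned a 77.3-fold range. The median level was 98.5 TPM, against 12.2 TPM for all tested genes, and 39 members were at 100 TPM or more. MRPL33, a small protein with a bacterial counterpart, was highest at 738.53 TPM in shCON, 608.2 TPM with shUSP16#1 and 438.83 TPM with shUSP16#2. MRPS24, a protein of the small subunit head, was at 585.37, 739.23 and 611.94 TPM and was the highest member in both hairpin libraries. MRPL20, whose bacterial counterpart acts early in assembly of the large subunit, was at 553.62, 434.95 and 471.1 TPM. Next in mean level were MRPL41, a mitochondrion-specific protein, and MRPL4, a protein that lines the exit tunnel, at 282.06 and 309.2 TPM in shCON. MRPL50 was lowest, at 9.55, 5.29 and 4.96 TPM, followed by MRPS31, at 8.08 and 7.4 TPM in the hairpin libraries, 0.735 and 0.673 times its level in shCON. MRPL1, the protein of the L1 stalk that guides tRNA out of the ribosome, was at 18.12, 11.64 and 9.2 TPM. These 3 were the members under 20 TPM in every library, whereas 65 were above 30 TPM in every library.

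**Figure D2:**
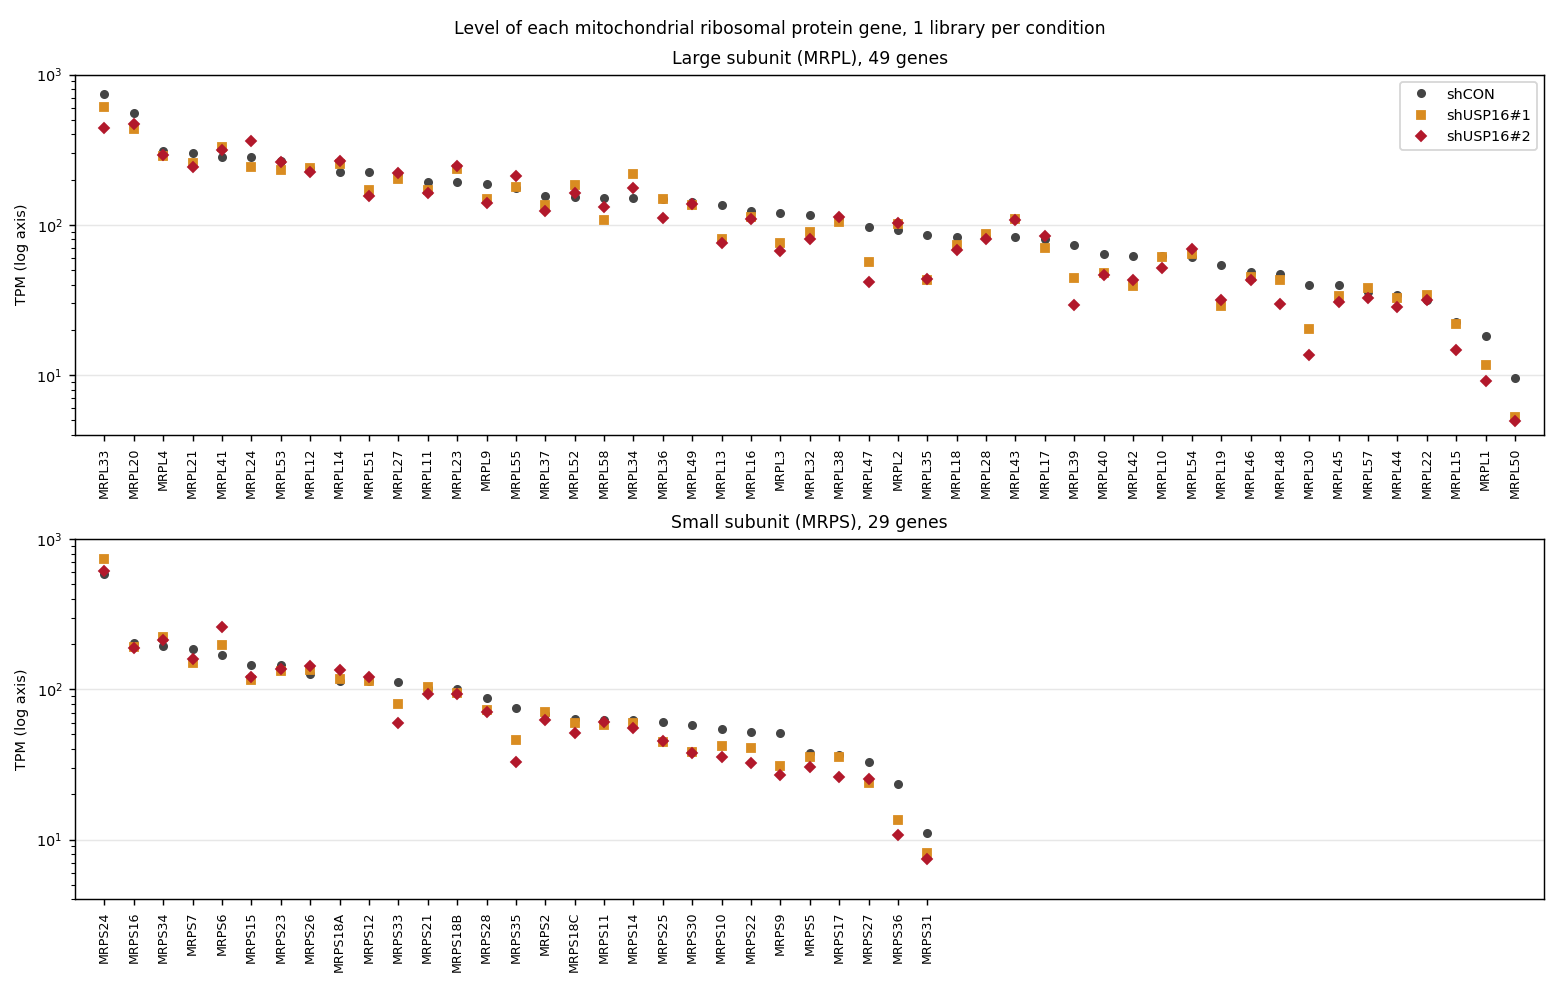
TPM (vertical axis, log scale) of each MRPL gene (upper panel) and MRPS gene (lower panel), ordered by level in shCON, with 1 point for each of the 3 libraries. Most members had points close together, and wide gaps show for genes such as MRPL30 (40.03, 20.41 and 13.53 TPM), MRPL39 and MRPS35.

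Summed over all 78 genes, the level was 10322.6 TPM in shCON (1.03% of all TPM), 9565.73 TPM with shUSP16#1 (0.958%) and 9268.98 TPM with shUSP16#2 (0.932%). It was thus lower in both hairpin libraries, with differences of -756.85 and -1053.6 TPM. MRPL33 contributed -130.33 TPM to the first difference and -299.7 TPM to the other, and MRPL20 contributed -118.67 and -82.52 TPM. In the other direction, the largest rise with shUSP16#1 was that of MRPS24, from 585.37 TPM in shCON to 739.23 TPM. With shUSP16#2 it was that of MRPS6, which was higher by 29.64 and 89.6 TPM in the 2 hairpin libraries. Protein-coding genes held 93.2%, 95.3% and 88.7% of TPM in the 3 libraries, and as a share of these the members made up 1.11%, 1.01% and 1.05%.

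Across the members the median change was -0.12 under shUSP16#1 and -0.25 under shUSP16#2. Set against the median over tested genes, these medians turned positive, at 0.05 and 0.12. Among the tested genes of at least 30 TPM in shCON, a level nearer to that of the members, the medians were -0.19 and -0.30. Lower levels under both hairpins were found for 52 members (66.7%, against 57.2% of all tested genes) and higher levels under both for 14 (17.9%, against 24.5%). The changes of the members were spread over a narrower range than those of all tested genes. The mean change of both hairpins had an SD of 0.37 across members, against 0.72 for all tested genes and 0.63 for those of at least 30 TPM. Its middle 50% ran from -0.45 to -0.04 for members and from -0.70 to 0.13 for all tested genes. A level under shUSP16#2 below that under shUSP16#1 was found for 51 of the 78 members. This was a smaller share than that of all tested genes, at 10016 of 13637.

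Few members passed a 1.5-fold change. Under shUSP16#1, 13 members (16.7%) were at least 1.5-fold lower, against 23.2% of all tested genes, and 0 were at least 1.5-fold higher, against 8.72%. Under shUSP16#2, 18 members (23.1%) were lower, against 38.5%, and 1 (1.28%) was higher, against 7.32%. Under both hairpins, 12 members (15.4%) were lower, against 20.8%, and 0 were higher, against 4.03%. Each share was below that of all tested genes. Of the 4019 tested genes of at least 30 TPM in shCON, 847 were at least 1.5-fold lower under both hairpins and 71 were higher. Rises under both hairpins were thus also rare among genes nearer to the members in level. With each comparison centred on the median over tested genes, 3 members were at least 1.5-fold lower under both hairpins and 1 was higher.

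**Figure D3:**
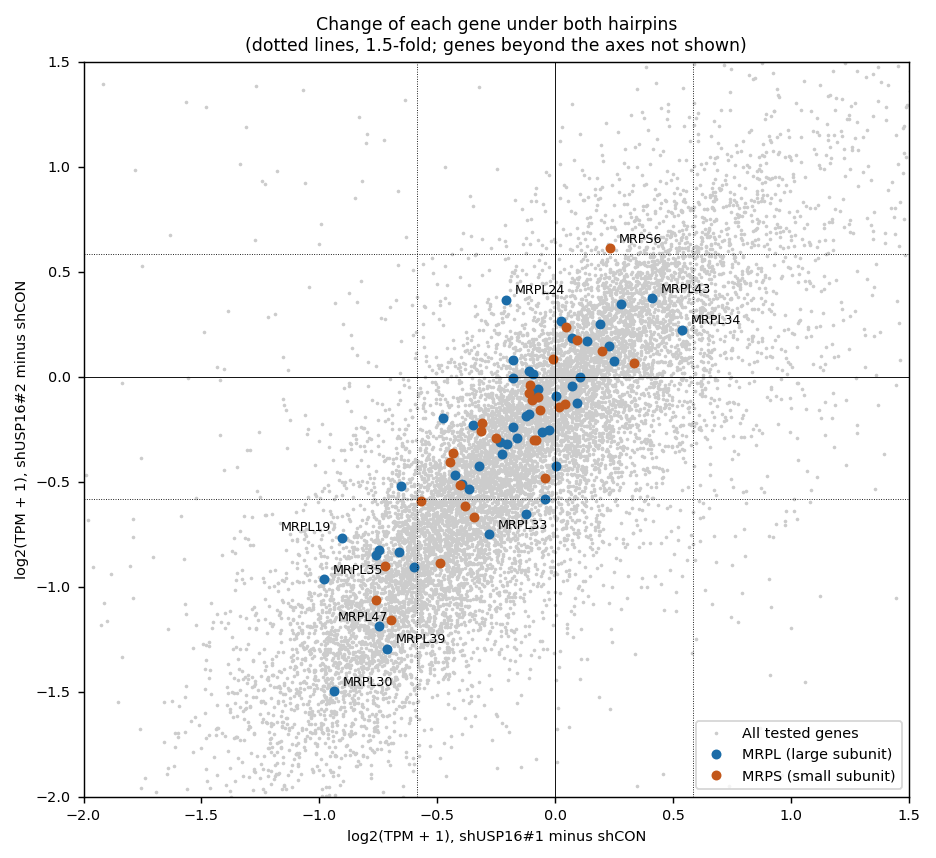
Change in log2(TPM + 1) under shUSP16#1 (horizontal axis) and shUSP16#2 (vertical axis) for MRPL genes (blue), MRPS genes (orange) and all tested genes (grey), with dotted lines at 1.5-fold. Of the members, 12 lie in the lower left corner past both lines, with MRPL30 lowest, and none lies past both lines in the upper right. The axes share the shCON library, which by itself spreads points along the diagonal.

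The 12 members at least 1.5-fold lower under both hairpins were MRPL30, MRPL39, MRPL35, MRPL47, MRPS35, MRPS36, MRPL19, MRPS9, MRPL13, MRPL50, MRPL1 and MRPL3. MRPS35, MRPS9 and MRPL3 were named after their values were seen. There were 9 among the 49 MRPL genes (18.4%) and 3 among the 29 MRPS genes (10.3%). That both hairpin libraries were below shCON in each of them follows from the rule that chose them.

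MRPL30 (ENSG00000185414, chromosome 2, 99181079 to 99197626 on GRCh38), with a counterpart in bacteria, had the lowest mean change of all members. It was at 40.03, 20.41 and 13.53 TPM, or 0.510 and 0.338 times the control level. Its changes were -0.94 and -1.50. Its mean change lay 2.95 scaled median absolute deviations below the members' median, inside the limit of 3 set for an outlier. MRPL30 shares 564 exon bases on the same strand with AC079447.1 (2.5, 0.88 and 1.45 TPM), so reads there could have been divided between them. Exon bases are shared with another gene for 41 of the 78 members, on the same strand for 16.

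MRPL35, with a bacterial counterpart, was at 85.7, 42.96 and 43.43 TPM, changes of -0.98 and -0.96. Both hairpin libraries were at nearly the same level in this gene. MRPL39 (chromosome 21), a mitochondrion-specific protein, was at 73.19, 44.21 and 29.22 TPM, changes of -0.71 and -1.30, one of the largest differences between the hairpins. MRPL47, whose bacterial counterpart sits at the exit of the peptide tunnel, was at 96.31, 56.91 and 41.7 TPM, changes of -0.75 and -1.19. It overlaps ACTL6A on the opposite strand by 124 exon bases, and ACTL6A was at 169.14, 114.59 and 102.66 TPM. Whether the libraries kept strand is not given in the sources used here, so reads from such pairs cannot be told apart.

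MRPL19, which lies at the contact between the subunits, was at 54.4, 28.63 and 31.47 TPM, changes of -0.90 and -0.77. MRPL13 was at 136.16, 80.02 and 75.24 TPM, changes of -0.76 and -0.85. It was the most abundant of the 12 in shCON. MRPL3, which reaches toward the peptidyl transferase centre, was at 120.28, 75.58 and 67.03 TPM, changes of -0.66 and -0.83. MRPL50 and MRPL1, among the lowest in level, had changes of -0.75 and -0.82 and of -0.60 and -0.91.

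In the small subunit, MRPS35, a mitochondrion-specific protein, was at 74.75, 45.71 and 32.87 TPM, changes of -0.70 and -1.16. MRPS9, a protein of the head that contacts tRNA, was at 51.25, 30.66 and 26.95 TPM, changes of -0.72 and -0.90. MRPS36 was at 23.4, 13.42 and 10.69 TPM, changes of -0.76 and -1.06. Despite its symbol, the MRPS36 product is now known as a component of the mitochondrial alpha-ketoglutarate dehydrogenase complex, so of the 3 MRPS genes only MRPS35 and MRPS9 encode proteins of the small subunit.

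Of the 14 members higher under both hairpins, only MRPS6 passed 1.5-fold under 1 of them. MRPS6 (ENSG00000243927, chromosome 21, 34073224 to 34143034), a protein of the small subunit platform with a bacterial counterpart, was at 168.75, 198.39 and 258.35 TPM, changes of 0.23 and 0.61. With the trend on GC content removed, MRPS6 was the only outlier among the members, with a mean change of 0.89 that lay 3.94 scaled median absolute deviations above their median. It shares 273 exon bases on the same strand with SLC5A3 (3.37, 2.94 and 1.99 TPM). MRPL39 and MRPS6 are both on chromosome 21, 3.42 and 5.02 megabases from USP16.

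MRPL43, a mitochondrion-specific protein, was at 82.38, 109.9 and 107.14 TPM, changes of 0.41 and 0.38. It overlaps SEMA4G by 1170 exon bases on the opposite strand, and SEMA4G was at 0.96, 2.47 and 2.92 TPM. On the same side MRPL43 also overlaps TWNK, by 149 exon bases, and TWNK was at 21.9, 17.9 and 15.07 TPM. MRPL34, with a bacterial counterpart, was at 150.16, 218.18 and 175.41 TPM, changes of 0.54 and 0.22, and it overlaps ABHD8 by 223 exon bases on the opposite strand (32.16, 47.97 and 57.11 TPM). MRPL23, a tunnel exit protein, was at 192.3, 233.7 and 244.77 TPM, and MRPL14, which faces the small subunit, was at 223.9, 255.83 and 266.31 TPM. The changes of MRPL23 (0.28 and 0.35), MRPL14 (0.19 and 0.25) and MRPL41 (0.23 and 0.15) were positive, but with the GC trend removed their mean changes were -0.10, -0.02 and -0.42.

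The subunits, which join to form 1 ribosome, were compared next. The median change was -0.16 under shUSP16#1 and -0.24 under shUSP16#2 for the 49 MRPL genes, and -0.11 and -0.26 for the 29 MRPS genes. The medians of the mean change were -0.21 and -0.19, a difference of -0.01. With shUSP16#2 alone this difference was 0.02, and over the 37 members that share no exon base with another gene it was 0.16, so its direction was not settled. Summed TPM gave 7195.21, 6494.82 and 6329.1 for MRPL genes and 3127.37, 3070.91 and 2939.88 for MRPS genes, ratios of 2.30, 2.11 and 2.15. The ratio of sums was lower in both hairpin libraries, and MRPL33 and MRPL20 were the largest contributors to the difference in the MRPL sum. The MRPS sum holds MRPS24, which was higher under both hairpins and most under shUSP16#1 (585.37, 739.23 and 611.94 TPM). The lower ratio with shUSP16#1 therefore rests in large part on this 1 gene.

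By place in the ribosome, the stalk that recruits translation factors had a median mean change of -0.14. MRPL10 was at 62.06, 60.99 and 51.88 TPM, MRPL11 at 193.08, 170.55 and 163.3 TPM, and MRPL12 at 238.67, 239.0 and 223.87 TPM. None of the 3 passed 1.5-fold. The 6 genes of the tunnel exit had a median of 0.00 and the widest spread of these places (SD 0.45). MRPL47 was the only one at least 1.5-fold lower, and MRPL24 was at 280.5, 242.64 and 362.07 TPM, with changes of opposite sign (-0.21 and 0.37) under the hairpins. MRPL45, which tethers the ribosome to the inner membrane, was at 39.71, 33.85 and 30.57 TPM. The 6 genes of the central protuberance had a median of -0.28, close to the -0.27 of all tested genes. Of the 6, 5 were lower under both hairpins, against 57.2% of all tested genes, with 0 past 1.5-fold.

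In the small subunit the 5 genes of the head had a median mean change of -0.27, with MRPS9 lowest and MRPS24 highest. The 8 genes of the body and platform had a median of -0.14, with 0 at least 1.5-fold lower under both. MRPS12, a protein of the decoding centre, was at 113.54, 112.8 and 120.36 TPM, changes of -0.01 and 0.08. The 3 paralogs of MRPS18 differed in sign. MRPS18A, whose protein sits in the large subunit, was at 113.6, 117.35 and 133.99 TPM. MRPS18B was at 100.69, 93.96 and 93.02 TPM and MRPS18C at 62.97, 59.45 and 50.88 TPM, both lower than shCON in each hairpin library. After the same centring, MRPS18B and MRPS18C had positive mean changes of 0.16 and 0.08.

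Genes were also grouped by the structural names of their proteins, which set those with bacterial counterparts apart from mitochondrion-specific ones. By these names MRPS18A and MRPS18B count as mitochondrion-specific, although their paralog MRPS18C counts among those with bacterial counterparts. The 30 large subunit genes with bacterial counterparts had a median mean change of -0.21. Of the 30, 7 were at least 1.5-fold lower under both hairpins, a share close to the 20.8% of all tested genes. The 21 mitochondrion-specific genes of the large subunit, MRPS30 and MRPS18A included, had -0.16, with 2 past 1.5-fold. In the small subunit the 16 genes with bacterial counterparts had -0.15 and the 10 mitochondrion-specific genes had -0.41, with 1 past 1.5-fold in each. Of the last group, 8 of 10 were lower under both hairpins, against 57.2% of all tested genes. Their median GC content was 44.0%, against 47.3% for the 16 genes, and with the GC trend removed the medians were -0.19 and -0.08.

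The study's list of genes raised by c-Myc holds 4 members, MRPS30, MRPS17, MRPL34 and MRPS23. MRPS30, a protein now placed in the large subunit, was at 57.59, 38.49 and 37.87 TPM, changes of -0.57 and -0.59. MRPS17 was at 36.67, 35.61 and 25.97 TPM and MRPS23 at 143.93, 133.04 and 136.21 TPM. These 3 were lower in both hairpin libraries and MRPL34 was higher, and none passed 1.5-fold under both hairpins. After centring, the mean changes of MRPS23 (0.17) and MRPS17 (0.0080) were positive, and with the GC trend removed that of MRPS30 went from -0.58 to -0.0016.

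**Figure D4:**
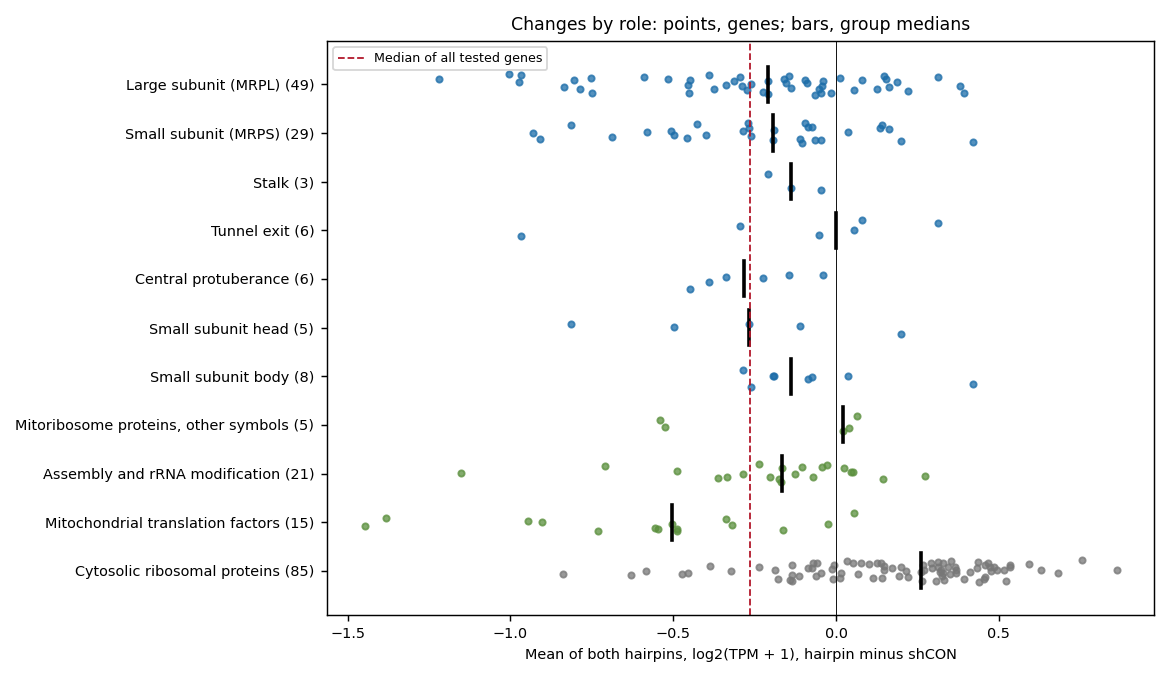
Mean change of both hairpins in log2(TPM + 1) (horizontal axis) for genes by subunit and place in the mitochondrial ribosome (blue), for related mitochondrial lists (green) and for cytosolic ribosomal proteins (grey), with the number of genes in parentheses. Black bars are group medians, and the dashed line is the median of all tested genes (-0.27). The medians of both subunits lie at -0.21 and -0.19, that of mitochondrial translation factors at -0.51 and that of cytosolic ribosomal proteins at 0.26.

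The changes of the members followed the GC content of their transcripts. Across the 78 members the rank correlation of change with GC content was 0.60 under shUSP16#1 and 0.65 under shUSP16#2, against 0.53 and 0.63 across the 13296 tested genes with a GC value. These points share libraries and are not independent. The 39 members of lower GC content (33.5% to 47.6%) had median changes of -0.37 and -0.53, and the 12 members at least 1.5-fold lower under both hairpins were all among them. All tested genes in that range had -0.48 and -0.82. The 39 members of higher GC content (47.7% to 71.9%) had medians of -0.07 and -0.08, with 0 past 1.5-fold, and all tested genes in that range had 0.05 and -0.05. With the GC trend removed, 2 members (2.56%) were at least 1.5-fold lower under both hairpins, against 12.5% of all tested genes. They were MRPL30, at -0.68 and -1.15, and MRPL40, at -0.71 and -0.95, which was named after its value was seen. MRPL40 was at 64.28, 47.61 and 46.12 TPM and had a GC content of 59.3%. What part GC content had in these results was not tested.

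**Figure D5:**
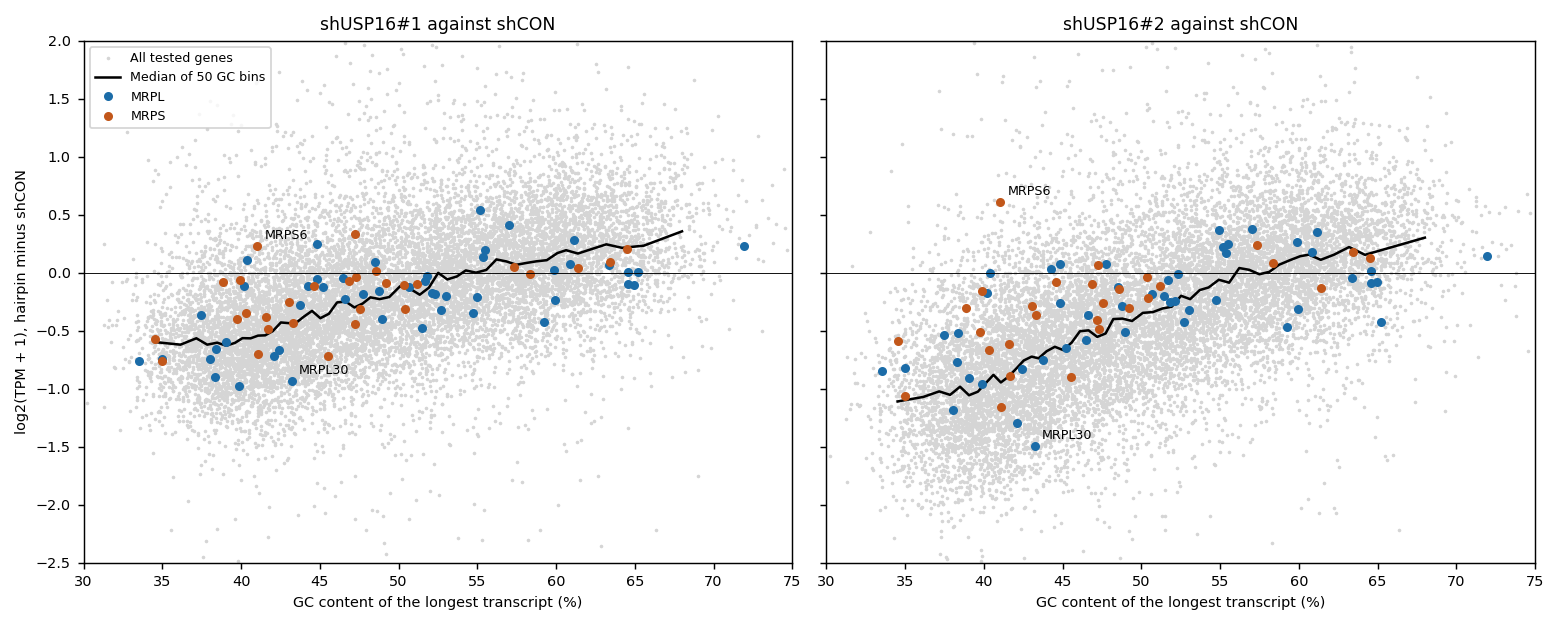
Change in log2(TPM + 1) (vertical axis) against GC content of the longest transcript (horizontal axis, %) under shUSP16#1 (left) and shUSP16#2 (right), for MRPL genes (blue), MRPS genes (orange) and all tested genes (grey, with the median of 50 bins as a black line). Below a GC content of 47.6% the members lie mostly above the line under shUSP16#2 (medians of -0.53 for members and -0.82 for all genes in that range), MRPL30 lies below it in both panels and MRPS6 (0.23 and 0.61) above it.

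Length and level were compared in the same way. The rank correlation of the members' change with transcript length was -0.24 under shUSP16#1 and -0.22 under shUSP16#2, against -0.27 and -0.31 for all tested genes. With the level in shCON, which also enters the change, it was 0.27 and 0.45, against -0.14 and -0.07. The median transcript length was 1722 bases for members and 3263 for all tested genes.

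Matches to the seed of a hairpin guide were counted in the 3′ untranslated regions, because a short hairpin can act on mRNAs other than its target through bases 2 to 8 of its guide. The guides below are the reverse complements of the target sequences that the study lists, with the seed in capitals, and under them is the site in MRPL35, the only one of the 12 members with such a site, with the match in capitals.
shUSP16#1 guide: aTAAACATgatttcttctggc
shUSP16#2 guide: aAATCTTGtggaatatcaccg
MRPL35 site: gaaggtggATGTTTAggcttggg
The site of the shUSP16#1 seed was in 6 of the 78 members (7.69%), against 19.9% of the 11241 tested genes with a 3′ untranslated region, and that of the shUSP16#2 seed was in 3 (3.85%), against 10.2%. The members with the shUSP16#1 site were MRPL35, MRPS10, MRPS11, MRPS14, MRPS17 and MRPS33, and those with the shUSP16#2 site were MRPS11, MRPS16 and MRPS23, most of them named for their sites and not by their values. Under shUSP16#1 the median change was -0.24 with its site and -0.12 without. The same 6 members were also lower under shUSP16#2 (-0.55, against -0.24 for the rest), and they had longer 3′ untranslated regions (median 2252.5 bases, against 283.5) and a lower GC content (41.6%, against 48.5%). Under shUSP16#2 the median change of members was -0.08 with its own site and -0.26 without. Among all tested genes, those with the shUSP16#1 site had medians of -0.48 and -0.82, against -0.14 and -0.29 without. Those with the shUSP16#2 site had -0.47 under shUSP16#1 and -0.78 under shUSP16#2, against -0.17 and -0.35 without. Genes with either site were thus lower under both hairpins, and not only under the hairpin that the site matches. The length of the 3′ untranslated regions of all tested genes was not set beside these shares, and its part in them was not tested. MRPL35 holds the shUSP16#1 site and was nearly as low under shUSP16#2 (-0.96) as under shUSP16#1 (-0.98).

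Related genes were compared with the members. Of the 5 mitochondrial ribosome proteins with other symbols, 0 passed 1.5-fold under both hairpins. DAP3, a GTP-binding protein of the small subunit, was at 175.91, 128.9 and 112.67 TPM and PTCD3, an RNA-binding one, at 34.27, 21.82 and 25.31 TPM. AURKAIP1 was at 563.36, 582.23 and 596.34 TPM and CHCHD1 at 214.4, 216.26 and 224.42 TPM, both slightly above shCON in each hairpin library. The 21 genes of ribosome assembly and rRNA modification had median changes of -0.12 and -0.19, close to those of the members, and 1, FASTKD2, which binds the large rRNA, was at least 1.5-fold lower under both (18.22, 9.81 and 5.91 TPM). TFB1M, an rRNA methyltransferase, was at 6.38, 8.78 and 7.13 TPM.

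The 15 mitochondrial translation factors had lower medians, -0.37 and -0.72, and 4 of the 15 were at least 1.5-fold lower under both hairpins, near the 20.8% of all tested genes, with 0 higher. With the GC trend removed the medians were -0.27 and -0.37, against -0.17 and -0.23 for the members. LRPPRC, which stabilises mitochondrial mRNAs, was at 34.59, 14.92 and 9.69 TPM, changes of -1.16 and -1.74. GFM1, an elongation factor, was at 33.13, 12.65 and 11.56 TPM. TUFM, the elongation factor that delivers tRNA, was at 187.59, 183.7 and 185.03 TPM. The median GC content was 42.8% for this list and 47.7% for the members.

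The 85 cytosolic ribosomal protein genes differed from the members in the sign of their medians, which were 0.23 under shUSP16#1 and 0.26 under shUSP16#2. Of the 85, 58 were higher and 20 lower under both hairpins, against 24.5% and 57.2% of all tested genes. At least 1.5-fold under both, 3 of the 85 were higher, near the 4.03% of all tested genes, and 1 was lower, against 20.8%. The median GC content of the 85 genes, 47.9%, was near that of the members (47.7%). With the GC trend removed the medians were 0.21 and 0.28, against -0.17 and -0.23 for the members. After centring, the medians of both were positive, at 0.40 and 0.63 for the cytosolic genes and 0.05 and 0.12 for the members, so the difference in sign depends on the scaling.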

How the data were processed

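RNA was extracted with Trizol from PC3 cells and libraries were made with a TruSeq RNA kit. The values are TPM from the deposited table, whose 3 repeated columns were not used. The submitters' processing notes name CASAVA, HISAT2 and hg19, and the quantification tool, annotation and strand setting are not given in the sources used here. Identifiers of all 78 members matched GENCODE release 29, and every gene coordinate is from it (GRCh38).

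Of entries that repeat a name, the one with the highest mean was kept (1211 left out, 59719 names). Genes were tested where the mean over the libraries reached 1 TPM, with a pseudocount of 1. "Tested" means described against the fold threshold, since 1 library per condition allows no test. GC content was that of the longest transcript, and its trend was removed by taking away the medians of 50 bins and restoring the overall median. Shared exon bases and 3′ untranslated regions came from the same annotation. Guide sequences came from the study's supplement, and promoters from RefSeq (GRCh38.p14). The members, lists and motifs were chosen with earlier results of these data known.

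Named members were the 6 lowest and 6 highest under both hairpins (by the smaller change), the 5 highest and 3 lowest in mean TPM, the 3 with the largest difference between hairpins, outliers beyond 3 scaled median absolute deviations, the stalk, MRPS12, MRPL45, the MRPS18 paralogs and the members in the c-Myc list. In each related list the 2 lowest and 2 highest were eligible. The alternatives were a pseudocount of 0.1, centring, no minimum, a minimum of 5 TPM, rescaling to protein-coding genes, removal of the GC trend, each hairpin alone and subunits by structure. Members that share no exon base were an alternative chosen after seeing the data, as was the count of seed sites. Only the removal of the GC trend and the fold calls were tried on simulated data. Those data had planted changes, little noise and random GC values, a simpler setting than the real data. Scripts ran in Python 3.11.15 with matplotlib 3.10.9, scipy 1.17.1, pandas 2.3.3 and numpy 2.4.6.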

Additional observations from a re-analysis of the deposited data

How the results depend on the processing

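No paired analysis was possible because there was 1 library per condition. A value was taken to have moved when it shifted by more than the difference between the hairpins. Centring each comparison on the median over tested genes reversed the members' median change to 0.047 under shUSP16#1, 0.12 under shUSP16#2 and 0.068 for the mean of both. For the mean of both, the median was reversed to 0.060 for MRPL and 0.075 for MRPS genes. The size of the shift is set by centring, and the sign turned since these medians lay above those of all tested genes. The difference of MRPL minus MRPS medians, -0.01, was -0.11 with the GC trend removed, from -0.054 to 0.019 with either hairpin left out (reversed without shUSP16#1) and 0.16 over members that share no exon base, chosen after seeing the data. The cause was not tested. The count at least 1.5-fold lower under both hairpins, 12, was 3 with centring and 2 with the GC trend removed, and 13 to 18 under a single hairpin. The count at least 1.5-fold higher, 0, was 1 with centring, 1 with the GC trend removed and 0 to 1 under a single hairpin. Among the 32 named members, the sign of the mean change differed for 8 with centring, for 9 with the GC trend removed and for 3 under shUSP16#1 alone, and for 0 under the other alternatives in processing. With TPM alone, the counting error of low members such as MRPL50 is unknown.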

Other observations

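Pseudogenes of these genes were at low levels. Of 75 entries named as pseudogenes of a member, 2 had a mean of at least 1 TPM. In the order shCON, shUSP16#1 and shUSP16#2, MRPL45P2 was at 13.24, 14.48 and 11.34 TPM, whereas MRPL45 itself was at 39.71, 33.85 and 30.57 TPM. MRPS31P4 was at 5.26, 3.06 and 2.51 TPM, beside MRPS31 at 8.08 and 7.4 TPM in the hairpin libraries. Reads shared with such copies make the levels of MRPL45 and MRPS31 uncertain. All 75 entries together summed to 19.56, 19.17 and 14.75 TPM.

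The table names 3 antisense or divergent transcripts after a member. MRPL20-AS1 was at 15.19, 25.24 and 18.94 TPM, higher than shCON in both hairpin libraries, while MRPL20 was lower in both. MRPS30-DT was at 0.28, 0.86 and 4.98 TPM, while MRPS30 was lower in both. MRPL23-AS1 was at 0.09, 0.14 and 0.14 TPM, and MRPL23 was higher than shCON in both hairpin libraries. These transcripts were chosen for their names and after their values were seen. MRPL20-AS1 (AL391244.1 in the annotation) overlaps MRPL20 by 139 exon bases on the opposite strand, and MRPL23-AS1 overlaps MRPL23 by 85. Since it is not given whether the libraries kept strand, reads in those overlaps cannot be told apart.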
